A study of Mus musculus with 4 samples.

Results

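Trimethylation of lysine 4 on histone H3 (H3K4me3), which typically marks active promoters, was examined at 8 genes of the response to tumour necrosis factor and NF-kB: Tnf, Lta, Ltb, Tnfaip3, Nfkbia, Nfkbiz, Traf1 and Icam1. The members were all peaks that overlapped 6 windows of the mm9 mouse genome drawn around these genes, 58 peaks in all. They numbered 15 of 15086 peaks in LPS-treated Wbp7-/- cells, 15 of 14599 in untreated Wbp7-/- cells, 13 of 17313 in LPS-treated Wbp7+/- cells and 15 of 17316 in untreated Wbp7+/- cells. Joined wherever they overlapped, the peaks of the 4 lists made 12 regions at these genes, of 18786 in the genome. The genes were chosen by name for their roles, but with the presence, width and score of their peaks in these 4 lists already known, so all values are given as a description.

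The cells were primary macrophages grown from mouse bone marrow and labelled as being on day 7 of differentiation, from mice whose background was 94% C57BL/6 and 6% 129/Ola. By their labels they had no functional copy of Wbp7 (Wbp7-/-) or 1 (Wbp7+/-), and each genotype was sampled after 4 h in 10 ug/ml LPS (lipopolysaccharide, from the outer membrane of bacteria) and untreated. Wbp7, also called Kmt2b, encodes a methyltransferase for lysine 4 of histone H3. Each of the 4 groups held 1 library, so no difference below has a replicate check and no test between groups was run. The labels used here do not say how the allele was made or how many animals gave each library, and no wild-type sample was used here. The header of the LPS-treated Wbp7+/- list names 24 h, against 4 h on its label, which leaves its time of treatment uncertain. The comparison within Wbp7-/- cells does not use that library.

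LPS is sensed by a receptor complex at the macrophage surface, and the signal frees the transcription factor NF-kB to enter the nucleus. NF-kB switches on cytokine genes such as Tnf, and among its other targets are genes whose products switch the signal off again. Tnf, Lta and Ltb encode ligands of the tumour necrosis factor family. Nfkbia and Tnfaip3 encode inhibitors of the pathway, Nfkbiz a nuclear cofactor of NF-kB, Traf1 an adaptor of tumour necrosis factor receptors and Icam1 an adhesion molecule that binds integrins of leukocytes.

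The promoters of 5 of these genes, 1 from each of 5 windows, are shown because NF-kB acts on target genes through sites in DNA; the peaks were not placed on these sequences. RefSeq promoter sequences matched 7 of the 8 genes, with 8 entries, and none was matched for Nfkbiz. Tnfaip3 has 2 entries, with different starts, and the first is printed. Each sequence is the 250 bases before the annotated start, 5′ to 3′ on the strand of the gene, with GRCm38.p6 coordinates, a different build from that of the peaks. Capitals mark matches on either strand to a loose form of the NF-kB site, in which 3 G are followed by a purine, any 4 bases and 2 C.
Tnf, chr17:35202008-35202257, minus strand: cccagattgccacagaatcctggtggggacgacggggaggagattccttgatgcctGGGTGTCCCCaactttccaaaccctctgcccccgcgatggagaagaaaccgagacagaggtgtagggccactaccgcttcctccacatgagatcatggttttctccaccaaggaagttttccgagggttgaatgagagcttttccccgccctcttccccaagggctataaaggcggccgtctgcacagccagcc
Tnfaip3, chr10:19015411-19015660, minus strand: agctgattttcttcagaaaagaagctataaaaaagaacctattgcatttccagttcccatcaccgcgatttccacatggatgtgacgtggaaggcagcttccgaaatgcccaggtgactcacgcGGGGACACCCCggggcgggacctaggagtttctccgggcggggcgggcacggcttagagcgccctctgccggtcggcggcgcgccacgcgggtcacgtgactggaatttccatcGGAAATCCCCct
Nfkbia, chr12:55492648-55492897, minus strand: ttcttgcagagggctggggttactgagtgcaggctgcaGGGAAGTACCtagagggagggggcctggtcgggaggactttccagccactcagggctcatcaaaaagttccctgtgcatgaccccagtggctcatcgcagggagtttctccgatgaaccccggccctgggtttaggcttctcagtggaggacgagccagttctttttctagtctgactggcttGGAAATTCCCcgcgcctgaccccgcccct
Traf1, chr2:34961773-34962022, minus strand: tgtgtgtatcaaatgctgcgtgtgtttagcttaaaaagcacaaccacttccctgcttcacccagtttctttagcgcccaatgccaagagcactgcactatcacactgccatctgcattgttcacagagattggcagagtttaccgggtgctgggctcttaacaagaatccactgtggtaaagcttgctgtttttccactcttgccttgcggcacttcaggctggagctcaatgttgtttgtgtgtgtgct
Icam1, chr9:21015690-21015939, plus strand: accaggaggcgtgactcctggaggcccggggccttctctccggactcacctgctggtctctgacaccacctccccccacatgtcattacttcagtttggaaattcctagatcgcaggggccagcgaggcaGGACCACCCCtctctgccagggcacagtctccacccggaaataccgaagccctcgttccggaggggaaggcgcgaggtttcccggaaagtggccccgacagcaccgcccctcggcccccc

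At least 1 match lay before 5 of the 7 genes, and none before Traf1 or Lta. Of all 32851 promoter windows of this length, 28.4% held a match. In Nfkbia the match GGAAATTCCC began 29 bases before the start, and in Tnfaip3 the match GGAAATCCCC began 12 bases before it. The first run of capitals in Tnfaip3 holds 3 overlapping matches. The second Tnfaip3 entry, not printed, had 1 match, GGTTATTCCC, which began 89 bases before its start. Ltb, not printed, had the match GGAAAGTCCC at 87 bases before its start. A match is a description of the letters and not evidence of binding, and the absence of one says only that these letters are not in this window.

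Peaks were called by the authors in each library separately, and each carries a score that grows with enrichment and sequencing depth. Read numbers are unknown, so scores are the authors' own values within each list and measure no change between lists. Scores pile up at 3100, called the ceiling here. In Wbp7-/- cells the ceiling was reached by 11 of 15 member peaks with LPS, against 59.3% of all peaks in that list, and by 7 of 15 untreated, against 62.0%. In Wbp7+/- cells it was reached by 9 of 13 with LPS, against 54.8%, and by 7 of 15 untreated, against 56.0%. Where no peak was called, the mark may still have been present below the threshold of the peak caller. Positions below are in mm9, counted from 1, and regions are numbered along the chromosome within each window. No mm9 gene models were used, so a peak is tied to a window and not to an exon or a start site.

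H3K4me3 was called at all 6 windows in all 4 lists, and at several regions the called peaks reached further with LPS. How far called widths depend on sequencing depth was not tested, since read numbers are unknown. Scores measure no change between lists, so peak heights were not compared. Of the 12 regions, 9 had a peak in every list, against 65.4% of all regions, and 7 were at the ceiling in every list, against 44.8%. The summed width of the member peaks was 69434 bp in LPS-treated and 38810 bp in untreated Wbp7-/- cells. The sum was 69344 bp in LPS-treated and 44300 bp in untreated Wbp7+/- cells. The map of peaks shows the broad LPS peaks beside the narrower or split untreated ones.

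**Figure D1:**
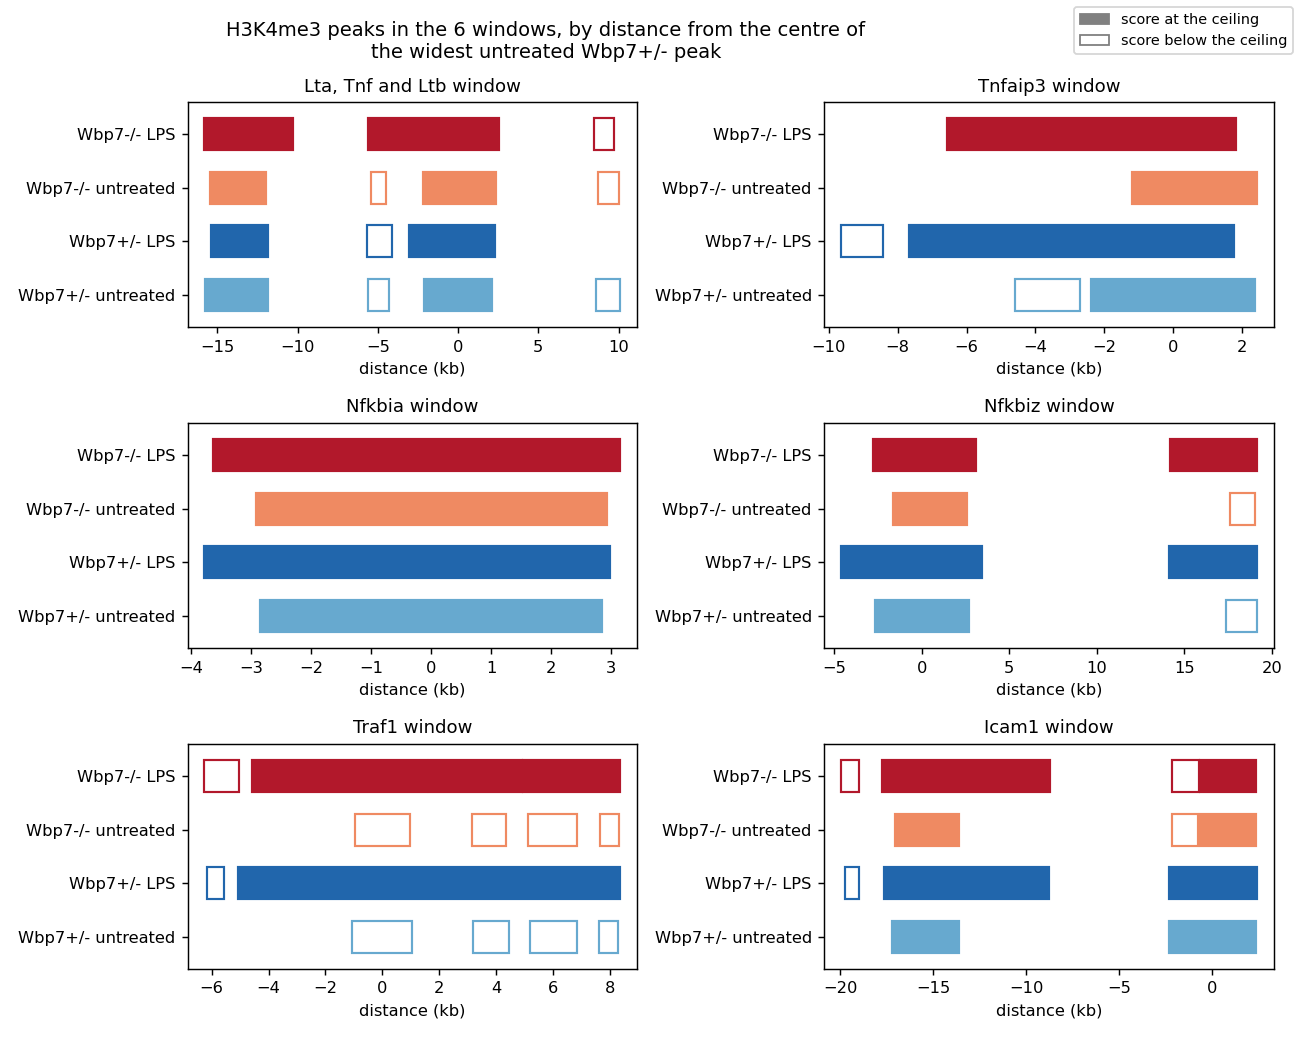
Peaks of each list in the 6 windows, as distance in kb from the centre of the widest untreated Wbp7+/- peak; filled bars are at the score ceiling and open bars below it. The 4 open Traf1 bars of untreated cells are replaced by a nearly continuous filled stretch in both LPS lists.

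The ligand genes Tnf, Lta and Ltb share 1 window on chromosome 17, and RefSeq lists them there in the order Ltb, Tnf, Lta. Region 2, from 35332052 to 35340292, was covered over 8136 bp in LPS-treated and 5450 bp in untreated Wbp7-/- cells, a ratio of 1.49. In Wbp7+/- cells it was covered over 6994 bp with LPS and 5480 bp untreated, a ratio of 1.28. Both LPS values were above both untreated values.

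The outer edges of this region hardly moved, and the added width lay in the gap between its peaks. In LPS-treated Wbp7-/- cells 1 peak ran unbroken from 35332157 to 35340292, whereas 2 peaks stood 2314 bp apart in untreated Wbp7-/- cells. The gap in Wbp7+/- cells measured 1008 bp with LPS and 2209 bp untreated. The lower of these peaks scored 61.68 in untreated Wbp7-/-, 1071.6 in LPS-treated Wbp7+/- and 1194.72 in untreated Wbp7+/- cells, all below the ceiling. The value of 61.68 in untreated Wbp7-/- cells was the lowest score of any member peak.

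The other regions of the ligand window behaved differently. Region 1, from 35321931 to 35327452, crosses the lower edge of the window and is the only member that does so. It measured 5522 bp in LPS-treated and 3503 bp in untreated Wbp7-/- cells, against 3549 bp in LPS-treated and 3949 bp in untreated Wbp7+/- cells. Region 3, from 35346186 to 35347843, had weak peaks of 1263 bp in LPS-treated and 1340 bp in untreated Wbp7-/- cells. Wbp7+/- cells had no peak there with LPS and 1476 bp untreated. Its scores of 133.17, 147.28 and 171.37 in those 3 lists were low, where the lowest score in any list is 50.

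Tnfaip3 encodes A20, a ubiquitin-editing enzyme that restrains NF-kB signalling. Its main region, number 2 on chromosome 10 from 18725816 to 18735922, was covered over 8395 bp in LPS-treated and 3624 bp in untreated Wbp7-/- cells, a ratio of 2.32. In Wbp7+/- cells it was covered over 9439 bp with LPS and 6651 bp untreated, a ratio of 1.42. The untreated Wbp7+/- value includes a separate peak of 1889 bp with a score of 71.19, and by the widest peak alone the ratio was 1.98. A peak of 1209 bp with a score of 107.46, region 1 from 18723839 to 18725047, was called in LPS-treated Wbp7+/- cells only.

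Nfkbia encodes IkBa, which holds NF-kB in the cytoplasm. It had a single broad peak at the ceiling in every list, on chromosome 12 from 56588250 to 56595185. The peak measured 6794 bp in LPS-treated and 5848 bp in untreated Wbp7-/- cells, a ratio of 1.16. It measured 6761 bp in LPS-treated and 5705 bp in untreated Wbp7+/- cells, a ratio of 1.19. It was the widest untreated member peak of both genotypes, and with LPS it was wider by 946 bp in Wbp7-/- cells and by 1056 bp in Wbp7+/-.

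Nfkbiz encodes IkBz, a nuclear protein that NF-kB needs at a subset of its later targets. Its window on chromosome 16 held a pair of regions. Region 2, from 55834627 to 55839622, measured 4935 bp in LPS-treated and 1430 bp in untreated Wbp7-/- cells, a ratio of 3.45. It measured 4996 bp in LPS-treated and 1769 bp in untreated Wbp7+/- cells, a ratio of 2.82. By covered width this was the highest LPS ratio among the members in each genotype. The score was at the ceiling in both LPS lists, and below it untreated, at 306.54 in Wbp7-/- and 1989.94 in Wbp7+/- cells.

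Region 1 of the Nfkbiz window, from 55815885 to 55823906, was at the ceiling in every list. It measured 5831 bp in LPS-treated and 4249 bp in untreated Wbp7-/- cells, a ratio of 1.37. In Wbp7+/- cells it measured 8022 bp with LPS and 5379 bp untreated, a ratio of 1.49. In each treatment it was narrower in Wbp7-/- than in Wbp7+/- cells.

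Traf1 had the greatest gain in covered width with LPS among all regions called in both treatments, in each genotype. On chromosome 2 from 34806967 to 34821594, peaks covered 14083 bp in LPS-treated and 5544 bp in untreated Wbp7-/- cells, a ratio of 2.54. Those of Wbp7+/- cells covered 14035 bp with LPS and 5688 bp untreated, a ratio of 2.47. The gain of 8539 bp ranked 1 of 13092 regions in Wbp7-/- and the gain of 8347 bp ranked 1 of 15039 in Wbp7+/- cells.

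Untreated cells of both genotypes had 4 separate Traf1 peaks, none at the ceiling, with scores of 310.88 to 885.65 in Wbp7-/- and 124.54 to 1392.12 in Wbp7+/- cells. With LPS, Wbp7-/- cells had 3 peaks at the ceiling separated by gaps of 58 and 36 bp, beside a weak peak scoring 162.54. LPS-treated Wbp7+/- cells had 1 unbroken peak of 13435 bp, the fifth widest of the 17313 in its list, beside a weak peak scoring 76.95. The difference between 3 peaks and 1 rests on those short gaps. By the widest peak alone, the LPS ratio at Traf1 was 3.19 in Wbp7-/- cells and 6.33 in Wbp7+/-, and the Wbp7+/- value was above the 2.82 of Nfkbiz region 2.

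Icam1 had 3 regions on chromosome 9. Region 2, from 20818377 to 20827375, was at the ceiling in every list and measured 8999 bp in LPS-treated and 3423 bp in untreated Wbp7-/- cells, a ratio of 2.63. The widths in Wbp7+/- cells were 8870 bp with LPS and 3564 bp untreated, a ratio of 2.49. By gain in width it ranked 6 of 13092 regions in Wbp7-/- and 4 of 15039 in Wbp7+/- cells.

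Its neighbours in the Icam1 window differed from it. Region 3, from 20833760 to 20838495, measured 4515 bp in LPS-treated and 4399 bp in untreated Wbp7-/- cells, against 4736 bp in LPS-treated and 4639 bp in untreated Wbp7+/- cells. Its LPS ratios, 1.03 in Wbp7-/- and 1.02 in Wbp7+/- cells, were the closest to 1 among the members. It was 2 peaks in both Wbp7-/- lists, with gaps of 27 bp with LPS and 98 bp untreated, and 1 peak in both Wbp7+/- lists. Region 1, from 20816157 to 20817117, was called with LPS alone, at 961 bp and a score of 107.78 in Wbp7-/- and 733 bp and a score of 149.8 in Wbp7+/- cells. RefSeq places Icam4 and Icam5 next to Icam1, and which gene region 3 belongs to was not analysed here.

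**Figure D2:**
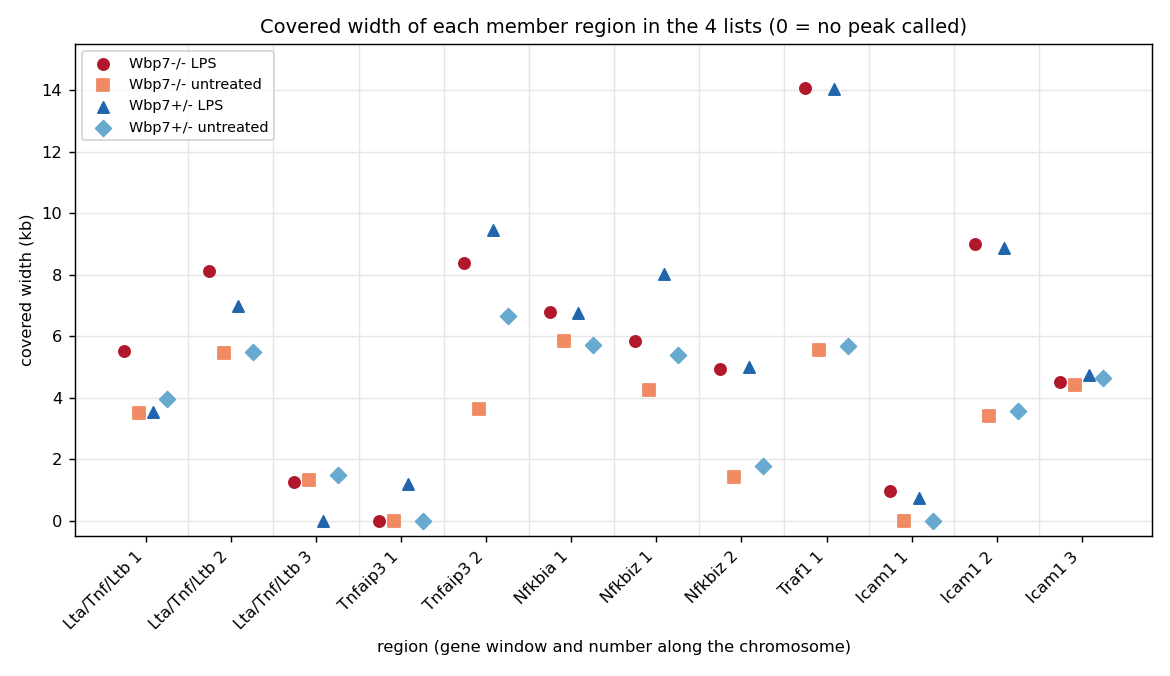
Covered width in kb of the 12 member regions in each list, with 0 where no peak was called. Traf1 region 1 stands at 14083 and 14035 bp in the LPS lists and Icam1 region 3 lies between 4399 and 4736 bp in all 4.

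The comparison of LPS-treated with untreated cells asks how H3K4me3 at these genes differs with activation. In Wbp7-/- cells 7 of the 10 member regions with a peak in both lists were at least 25% wider with LPS, against 8.23% of all regions, and 0 were at least 20% narrower (the same fold), against 8.07%. Of the 9 such regions in Wbp7+/- cells, 6 were at least 25% wider, against 9.98%, and 0 were at least 20% narrower, against 8.38%. The same 6 regions, in 5 of the 6 windows, passed this fold in both genotypes, and region 1 of the ligand window passed it in Wbp7-/- cells. Since the genes were chosen with such results in view, these shares describe the choice as well as the cells.

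By any amount, 9 of 10 regions were wider with LPS in Wbp7-/- cells, against 40.1% of all regions, and 8 of 9 in Wbp7+/- cells, against 43.5%. The median LPS ratio of the members was 1.53 in Wbp7-/- cells (0.943 to 3.45) and 1.42 in Wbp7+/- cells (0.899 to 2.82), where that of all regions was 0.977 and 0.983. Most member regions were at the ceiling, and among all regions at the ceiling in both lists 5.11% in Wbp7-/- and 6.15% in Wbp7+/- cells were at least 25% wider with LPS. Closest to the fold were the ligand region 2, just past it at 1.28 in Wbp7+/- cells, and Nfkbia, just short of it.

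**Figure D3:**
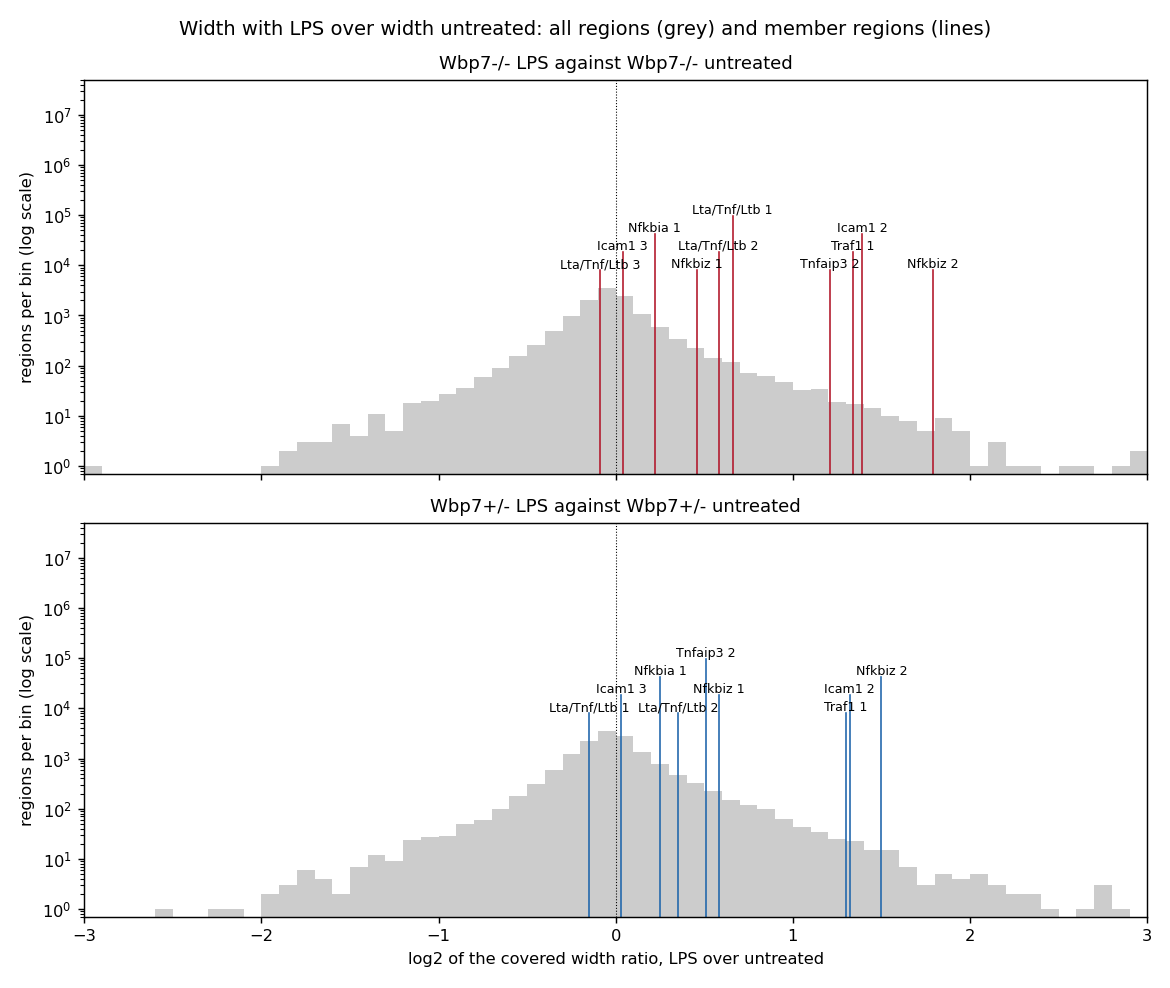
Log2 of the covered width with LPS over that untreated, for all regions (grey bars, log scale of regions per bin) and the member regions (lines), in Wbp7-/- cells above and Wbp7+/- cells below. Nfkbiz 2, Icam1 2 and Traf1 1 stand furthest right in both, from 1.30 to 1.79.

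Traf1 region 1 and Nfkbiz region 2 were at the score ceiling in the LPS list alone, in both genotypes. Scores stand for each list on its own, so the counts at the ceiling measure no change in enrichment. Only regions with a peak in both lists and below the ceiling untreated were counted next. Of these, 2 of 3 were at the ceiling with LPS in Wbp7-/- cells, against 4.41% of all such regions. In Wbp7+/- cells it was 2 of 2, against 3.84%. Ligand region 3, scoring 171.37 in untreated Wbp7+/- cells, had no peak there with LPS and so was not counted. A peak with LPS and none untreated was seen at 1 of 11 regions in Wbp7-/- cells, against 7.61%, and at 2 of 12 in Wbp7+/- cells, against 7.95%. The reverse was seen at 0 of 11, against 5.87%, and at 1 of 12, against 6.64%. Each of these shares rests on 1 or 2 regions.

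The largest extensions were one-sided. Outer edges here are the outermost ends of all of a list's peaks in a region, weak ones included. An outer edge lay at least 2 kb further out with LPS at 4 of 10 regions in Wbp7-/- cells, against 0.787% of all regions, and at 4 of 9 in Wbp7+/- cells, against 0.745%. They were Tnfaip3 region 2, Nfkbiz region 2, Traf1 region 1 and Icam1 region 2 in both genotypes, and in each of them only 1 of the 2 edges had moved that far. At 1 kb, the distance looked at first, the numbers were 6 of 10 members in Wbp7-/- cells, against 393 of 13092 regions, and 5 of 9 in Wbp7+/- cells, against 459 of 15039. Both edges had moved by 1 kb at 0 members in either genotype. Over all regions they had at 13 of the 393 in Wbp7-/- and 21 of the 459 in Wbp7+/- cells. One-sided shifts were thus usual among all regions and not particular to the members. At Traf1 the lower-coordinate edge moved out by 5300 bp in Wbp7-/- cells and 5115 bp in Wbp7+/-, and the other edge by 37 and 58 bp. The lower LPS edges there were set by the weak peaks scoring 162.54 in Wbp7-/- and 76.95 in Wbp7+/- cells. The lowest ceiling peak with LPS began at 34808636 in Wbp7-/- and 34808141 in Wbp7+/- cells. The lowest untreated peak began at 34812267 in Wbp7-/- and 34812169 in Wbp7+/- cells.

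At Icam1 region 2 the higher-coordinate edge moved out by 4884 bp in Wbp7-/- cells and 4860 bp in Wbp7+/-, and the other by 692 and 446 bp. At Tnfaip3 the lower edge moved out by 5380 bp in Wbp7-/- cells and 3087 bp in Wbp7+/-, while the higher edge lay further in, with outward shifts of -609 and -612 bp. The smaller Wbp7+/- shift rests on the separate untreated peak scoring 71.19, which began at 18728903. The ceiling peak of Wbp7+/- cells began at 18731105 untreated and at 18725816 with LPS. Nfkbiz region 2 was extended at its lower edge by 3422 bp in Wbp7-/- cells and 3212 bp in Wbp7+/-. RefSeq lists Traf1, Tnfaip3 and Nfkbia on the minus strand and Icam1 on the plus strand. The lower edge is the downstream side for a gene on the minus strand and the higher edge for one on the plus strand. No gene models place these regions on the genes, so which gene each extension belongs to was not analysed here. At Nfkbia the larger shift, 726 bp in Wbp7-/- cells and 933 bp in Wbp7+/-, was at the lower edge.

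**Figure D4:**
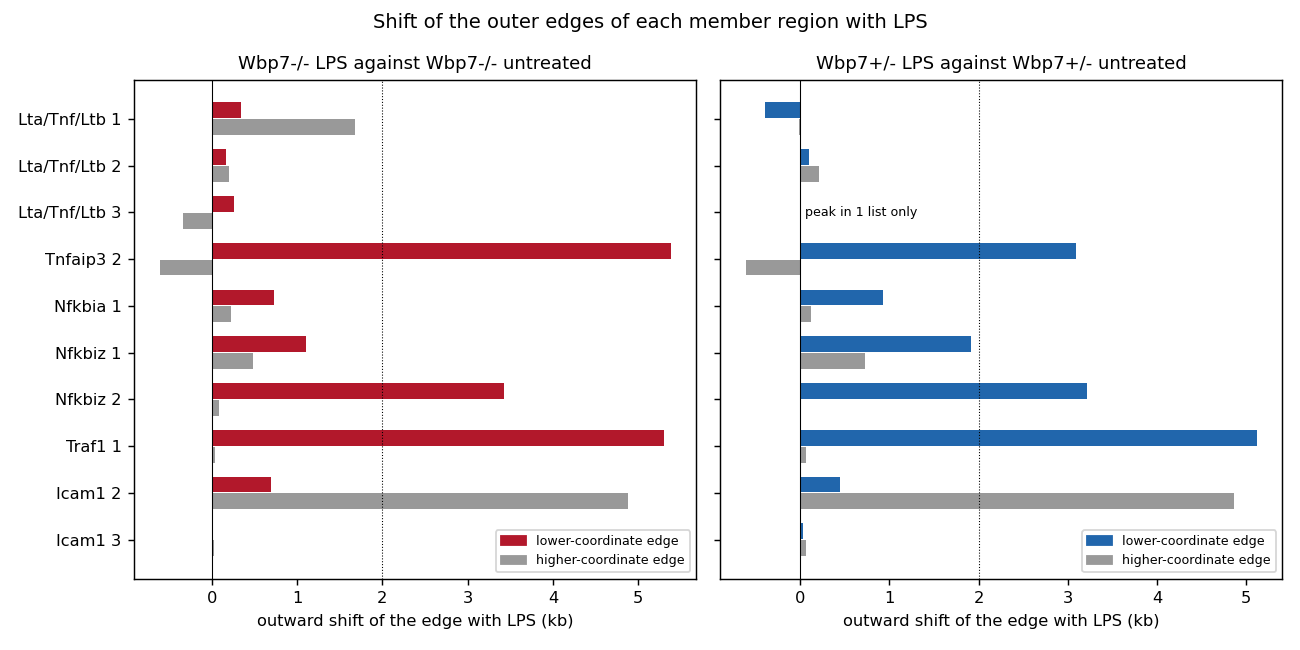
Outward shift in kb of the lower-coordinate edge (coloured) and the higher-coordinate edge (grey) of each member region with LPS, in Wbp7-/- cells on the left and Wbp7+/- cells on the right; the dotted line marks 2 kb. Traf1, Tnfaip3 and Nfkbiz extend at the lower edge and Icam1 region 2 at the higher edge in both genotypes.

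The comparison of genotypes asks whether H3K4me3 at these genes depends on Wbp7. In untreated cells the genotypes had peaks at the same member regions: 0 of 10 had a peak in Wbp7-/- cells alone, against 5.54% of all regions, and 0 of 10 in Wbp7+/- cells alone, against 18.5%. After LPS, 1 of 12 regions had a peak in Wbp7-/- cells alone, against 6.24%, and 1 of 12 in Wbp7+/- cells alone, against 18.8%. These were ligand region 3 and Tnfaip3 region 1, both low-scoring. Both Wbp7+/- lists hold more peaks than the Wbp7-/- lists, at depths that are not known. Of the 12 member regions 7 were at the ceiling in every list, against 44.8% of all regions. Such regions have a peak in every list by definition, and shares among regions of like score were not computed.

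In untreated cells most members were slightly narrower in Wbp7-/-. Only 1 of 10, Nfkbia, was wider there by any amount, against 62.0% of all regions, and the median Wbp7-/- to Wbp7+/- ratio was 0.928, against 1.03 over all regions. At least 20% narrower were 2 of 10, against 9.69%, and at least 25% wider 0 of 10, against 11.9%. The 2 were Tnfaip3 region 2, at 3624 bp in Wbp7-/- cells against 6651 bp in Wbp7+/-, and Nfkbiz region 1, at 4249 bp in Wbp7-/- cells against 5379 bp in Wbp7+/-. The Tnfaip3 ratio of 0.545 became 0.761 by the widest peak alone. Traf1 and Icam1 region 2, which gained most with LPS, had untreated ratios of 0.975 and 0.96.

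After LPS the median ratio was 1.00, against 1.03 over all regions, and 6 of 10 regions were wider in Wbp7-/- cells, against 60.3%. At least 25% wider were 2 of 10, against 12.8%, and at least 20% narrower 1 of 10, against 11.3%, shares close to those of all regions. Wider were ligand region 1, with a ratio of 1.56, and the weak Icam1 region 1, with 1.31. Narrower was Nfkbiz region 1, with 5831 bp in Wbp7-/- cells against 8022 bp in Wbp7+/- and a ratio of 0.727. The LPS-treated widths of Traf1, Nfkbia, Icam1 region 2 and Nfkbiz region 2 differed by at most 129 bp between the genotypes, with ratios of 1.00, 1.00, 1.01 and 0.988. By the widest peak alone the Traf1 ratio was 0.459, since the short gaps divide its Wbp7-/- peak. With 1 library per treatment and genotype, a difference in the LPS response could not be tested. The LPS-treated lists may also differ in time, since the header of the Wbp7+/- list names 24 h and its label 4 h.

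**Figure D5:**
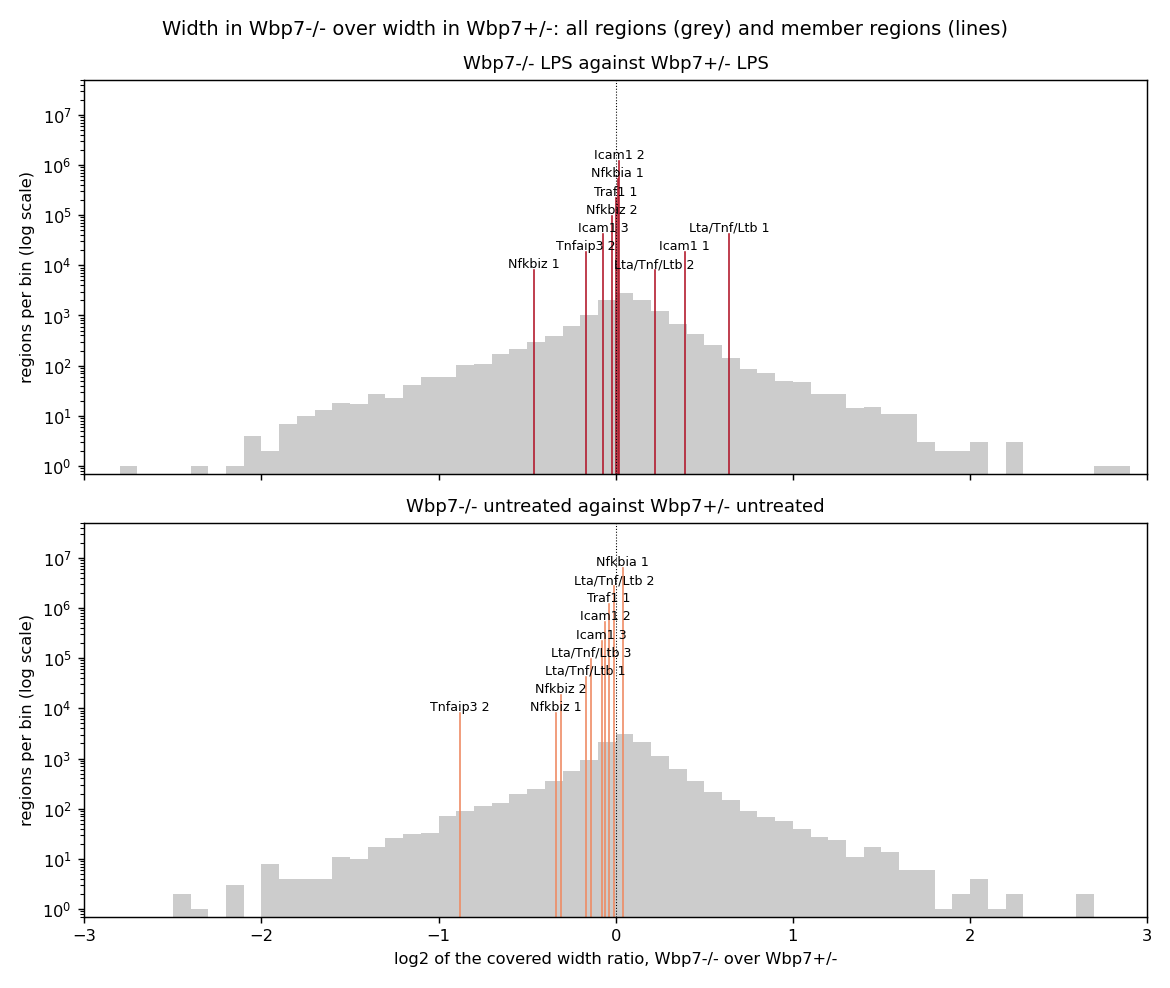
Log2 of the covered width in Wbp7-/- over that in Wbp7+/- cells, for all regions (grey bars, log scale of regions per bin) and the member regions (lines), with LPS above and untreated below. Tnfaip3 2 lies furthest left in untreated cells, at -0.88, and Nfkbiz 1 with LPS, at -0.46.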

How the data were processed

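The authors deposited 1 peak list per library, with a start, an end and a score for each peak. Reads were aligned with Bowtie to mm9, per the submitters' processing notes, and peaks were called with MACS, with the word input in the name, per the file headers. No source used here gives versions, thresholds or read numbers. The deposited score is the peak caller's value, runs from 50 to 3233.06 and most often stands at 3100. The deposited positions count from 0, and 1 was added to starts. Regions are peaks of the 4 lists joined where they overlap by at least 1 bp, and a covered width is the summed width of a list's peaks in a region. Every region was compared in the same way as the members. The width calculation was tried on a copy of the untreated Wbp7+/- list in which some peaks had been widened by a known factor. Those peaks had room before the next peak, so split or joined peaks were not covered. The members, lists and thresholds were chosen with earlier results of these data known. By rule, all 8 genes are named and every peak in their windows is accounted for. A wider list of NF-kB pathway genes, the Wbp7 locus and markers of cell type need mm9 gene models and were not analysed here. Edge shifts, gaps and ranks were added after seeing the data, and the 2 kb threshold on edges was taken after 1 kb had been tried. Alternatives were a score of at least 100, joining within 1 kb, lists of equal length, the widest peak, folds of 1.1 and 1.5 and windows widened by 5 kb. Python 3.11.15 with pandas 2.3.3, numpy 2.4.6 and matplotlib 3.10.9 was used.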

Additional observations from a re-analysis of the deposited data

Results flagged for a closer look

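Region 1 of the window of Lta, Tnf and Ltb, which crosses its lower edge, was picked out because the genotypes differed in the direction of its change with LPS. It was 2019 bp wider with LPS than untreated in Wbp7-/- cells, whereas in Wbp7+/- cells the difference was -400 bp. This was not tested, as there was 1 library for each genotype and treatment. The time of treatment of the LPS-treated Wbp7+/- library is also uncertain, since its header names 24 h and its label 4 h. Of the 12294 regions with a peak in every list, 35.9% changed width in opposite directions by any amount. RefSeq places Lst1 next to Ltb, and the gene of this region was not analysed here.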

How the results depend on the processing

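The alternatives gave 85 values, of which 73 lay within 1.5 times a count or 1.1 times a median ratio as reported, and 12 lay outside. Only median ratios were checked for a change of direction, and 0 were flagged. The median between the genotypes after LPS was reported as 1, so no change could be flagged there. Its alternatives ran from 0.996 to 1.01. The median LPS ratio in Wbp7-/- cells was 1.69 with peaks scoring at least 100 and also by the widest peak. At 1.5-fold, regions wider with LPS in Wbp7+/- cells numbered 3, and at 1.1-fold 1 region was narrower there. Between the genotypes after LPS, wider regions numbered 1 at 1.5-fold and 1 with only regions wholly inside a window, an alternative chosen after seeing the data. Narrower regions there numbered 2 with peaks joined within 1 kb, 3 by the widest peak, 2 at 1.1-fold and 0 at 1.5-fold. In untreated cells, regions narrower in Wbp7-/- numbered 5 at 1.1-fold and 1 at 1.5-fold. Stricter and looser folds change these counts by construction. Several of these counts are so low that 1 region more or less moves them past 1.5 times. The number of regions with a peak in every list was 8 to 10 under the alternatives. No paired analysis was possible because each group holds 1 library and the labels give no replicate numbers.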
